A study of Mus musculus with 96 samples.

Results

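The 10 genes described here are Adipoq, Plin1, Lep, Fabp4, Cidea, Cidec, Retn, Cfd, Arxes2 and Ucp1, which mark fat cells, measured in skeletal muscle libraries with liver and cerebral cortex beside them. They were found by symbol, 10 of 56748 genes in the count table, and each symbol matched 1 gene. The list was chosen with the muscle values of these libraries in view: fat cell genes had been seen to differ between the diets in muscle, so the muscle difference between the diets is what the list was selected on and is given here as a description with no test. Liver and cortex were not used to choose it and were tested. The comparison of male with female muscle under ad libitum feeding shares the male ad libitum libraries with that difference, so it is a description as well.

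The study read polyadenylated RNA from liver, muscle and cortex. Male C57BL/6 mice 1 to 8 ate ad libitum (AL) and male C57BL/6 mice 9 to 16 went without food for 16 h of every day (IF), both over 4 months that began at 6 weeks of age. By the paper's methods the IF males had food only in the light hours and were sampled at the end of their daily fast. The last fast and the hours of feeding thus cannot be told apart from the 4 months of IF. Female mice 25 to 32 were labelled AL and female mice 33 to 40 IF. For the female mice the labels give no strain, hours of fasting, time on diet or age. Each group held 8 mice per tissue, 95 of 96 libraries were used, and sex cannot be told apart from any other difference between the 2 sets of mice. The muscle sampled is not named more closely in the labels.

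The labels were checked against tissue and sex genes first. Acta1, the actin of skeletal muscle fibres, lay between 36670 and 59920 CPM (read counts scaled to library size) in the 32 muscle libraries, while the hepatocyte gene Alb reached at most 3.29 CPM and the neuronal gene Snap25 at most 0.262 CPM there. In the 47 other male libraries Ddx3y, a gene of the Y chromosome, had 889 to 2741 counts, and Xist, the RNA of the inactive X chromosome, at most 25. The cortex library of AL mouse 1 goes against its label: it held 10219 counts of Xist and 0 of Ddx3y, Kdm5d, Uty and Eif2s3y. It is left out of the values here except where it is put back, so the male AL cortex group has 7 mice. With it put back 294 genes were called between the diets in male cortex in place of 1332. The change is named beside some of the cortex results only, so the other male cortex calls may not hold. Between 28319147 and 49838004 reads were counted on genes in each muscle library and between 26097314 and 49838004 in each of all 95. CPM below are scaled within a tissue by trimmed mean of M values, and n is 8 mice per group unless stated.

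White fat cells store triglyceride in a large droplet coated by perilipin 1 (Plin1), and proteins of the CIDE family (Cidea, Cidec) let droplets fuse and grow. The same cells secrete adiponectin (Adipoq), leptin (Lep), resistin (Retn) and complement factor D (Cfd), and carry fatty acids on Fabp4, which capillary endothelium also makes. Brown and beige fat cells burn the stored fat through the uncoupling protein Ucp1, and Cidea is abundant in them. Fat cells lie between muscle fibres and around the muscle, so a dissected muscle can hold some of them. In bulk tissue, fewer or more cells of a type cannot be told apart from less or more RNA per cell.

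In male muscle, 9 of the 10 genes stood higher in the typical IF mouse than in the typical AL mouse, and Lep alone stood lower. Among droplet proteins, Plin1 ran from 2.29 CPM over a median of 8.20 to 37.2 CPM in AL mice and from 7.39 over 32.98 to 160.0 CPM in IF mice. The groups overlapped, with 4 of 8 IF mice above the highest AL mouse. Its log2 fold change, IF over AL, was 2.20 ± 0.69 (SE). Leaving out 1 library in turn gave between 1.78 without IF mouse 12 and 2.67 without AL mouse 2. Cidec ran from 3.55 over 13.2 to 49.2 CPM in AL mice and from 15.7 over 82.7 to 250.9 CPM in IF mice, with 6 of 8 IF mice above every AL mouse. Cidec had a log2 fold change of 2.52 ± 0.64. Cidea was scarce under AL, from 0.199 over 1.09 to 4.51 CPM, and ran from 2.33 over 9.94 to 153.9 CPM under IF. IF mouse 12 held the highest value of Cidea by a wide margin, with mice 9 and 10 next at 41.1 and 35.4 CPM. Cidea thus had a log2 fold change of 4.52 ± 0.98, and of 3.43 without IF mouse 12. The groups overlapped in part, with 6 of 8 IF mice above every AL mouse.

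Fabp4, which binds fatty acids in the cytoplasm, ran from 136.7 over 233.5 to 415.8 CPM in AL males and from 299.4 over 782.2 to 1796 CPM in IF males, and 7 of 8 IF mice lay above every AL mouse. It had a log2 fold change of 1.81 ± 0.33. Arxes2, a gene of adipocyte differentiation on the X chromosome, was the only member whose male groups did not overlap. It had 0 to 1.94 CPM under AL, with a median of 0.350, and 2.89 to 22.6 CPM under IF, with a median of 7.39. Its log2 fold change was 4.25 ± 0.68. With 1 library left out in turn it lay between 3.91 without IF mouse 12 and 5.05 without AL mouse 2, which had the highest AL value. Of the 15025 genes tested, 1.71% had every IF male above every AL male.

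Among the secreted products, Lep differed from the rest in direction. Adipoq ran from 2.39 over 10.5 to 39.1 CPM in AL males and from 13.1 over 52.9 to 173.5 CPM in IF males, with 5 of 8 IF mice above every AL mouse. Adipoq had a log2 fold change of 2.25 ± 0.63. Cfd ran from 20.1 over 62.6 to 223.5 CPM under AL and from 77.5 over 525.2 to 1194 CPM under IF, with a log2 fold change of 2.84 ± 0.58. Retn ran from 1.72 over 7.50 to 22.7 CPM under AL and from 9.79 over 43.6 to 98.97 CPM under IF, with a log2 fold change of 2.20 ± 0.55. In each of these last genes 7 of 8 IF mice lay above every AL mouse, and IF mouse 11 was the exception. Lep, the hormone that tracks fat stores, went the other way. It ran from 0.287 over 4.06 to 19.6 CPM in AL males and from 0 over 2.80 to 4.15 CPM in IF males. The groups overlapped widely, AL mice 2 and 4 being the high ones at 12.6 and 19.6 CPM and IF mouse 11 holding no Lep read. Lep had a log2 fold change of -1.25 ± 0.72, and of -0.71 without AL mouse 4.

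Ucp1, the uncoupling protein of brown and beige fat, was nearly absent under AL. Only AL mouse 2 of the 8 AL males had any Ucp1 read, 12 in all, or 0.347 CPM. All 8 IF males had at least 1 read, and 5 of them had more than 1 CPM: mouse 12 with 49.6, mouse 10 with 12.3, mouse 9 with 10.3, mouse 11 with 3.14 and mouse 13 with 2.53 CPM. Mice 14, 15 and 16 were between 0.0251 and 0.115 CPM. IF mouse 12 alone held 71.2% of the 3271 Ucp1 reads of its group. The gene did not pass the filter on low counts in male muscle, so it has no fitted fold change. The other 9 members passed it.

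**Figure D1:**
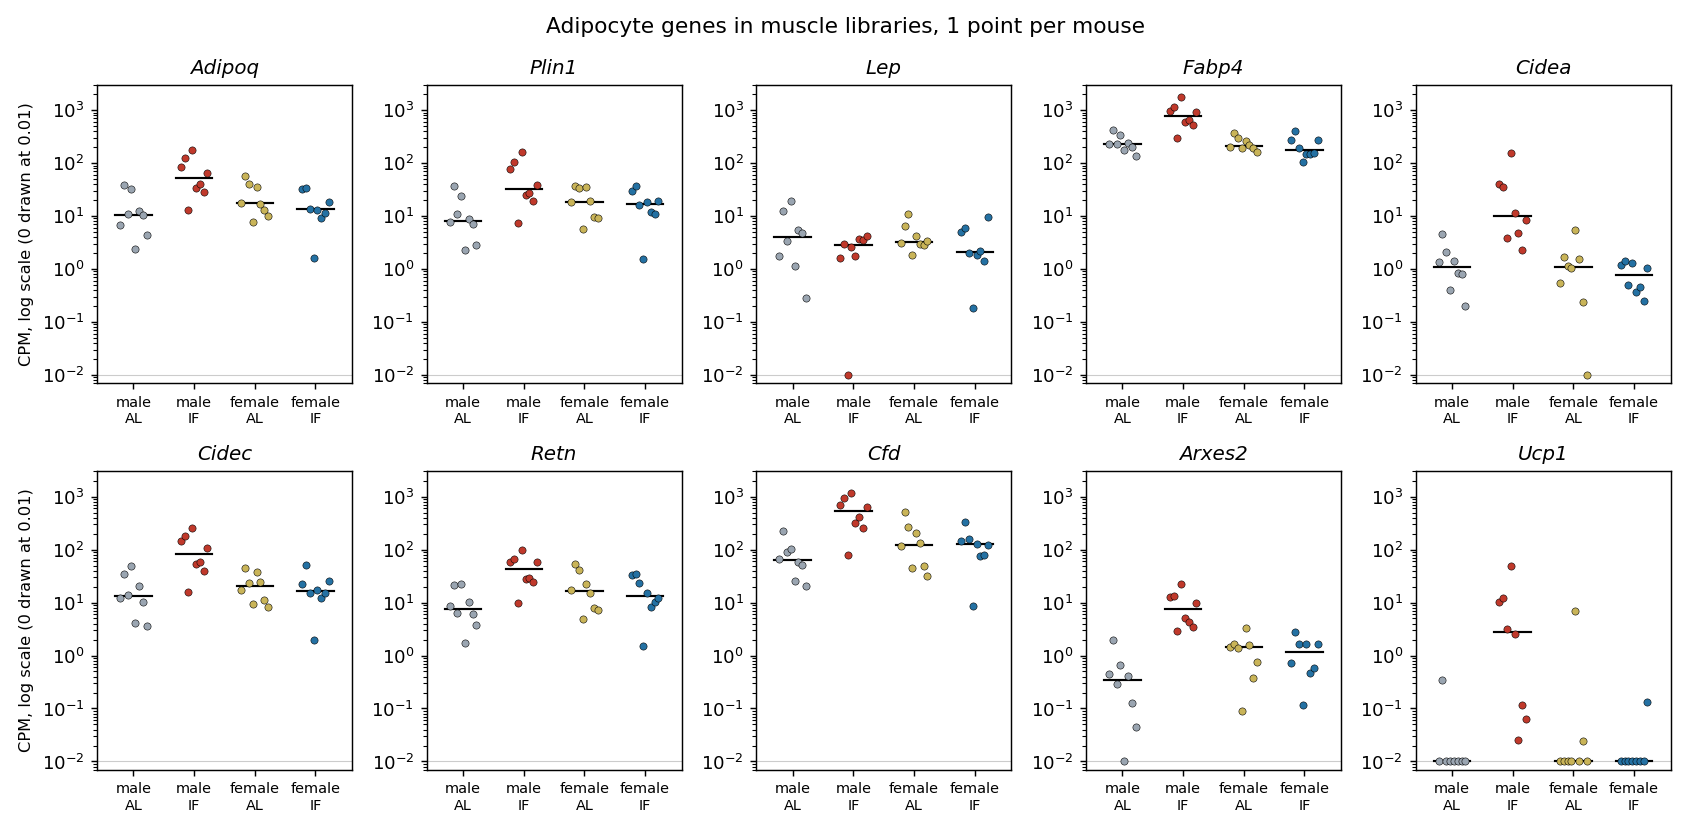
CPM of the 10 genes in muscle on a log axis, 1 point per mouse and a bar at the median of each group of 8 (male AL, male IF, female AL, female IF), with values of 0 drawn at 0.01. Male IF mice reach the highest values of every gene but Lep, while the female groups overlap for each gene.

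IF mouse 12 was the highest male for Adipoq, Plin1, Cidec, Cidea, Fabp4, Cfd, Retn, Arxes2 and Ucp1, and IF mouse 11 was the lowest IF male for Adipoq, Plin1, Cidec, Fabp4, Cfd, Retn and Arxes2. The 10 genes together took from 0.0166% over a median of 0.0322% to 0.0756% of all counts in AL males and from 0.0428% over 0.157% to 0.408% in IF males. IF mice thus ranged widely in their share, and the lowest IF mouse lay inside the AL range. Of the 9 members tested in male muscle, 8 had an adjusted p under 0.05 and a higher value under IF, beside 11.5% of all genes tested in that direction and 23.0% in either; since the list was selected on this difference, nothing is read from that count, which is 7, without Plin1, when any 1 library of AL mouse 1, 3, 5, 6 or 7 or IF mouse 10 or 12 is left out.

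In female muscle the AL and IF values of these genes overlapped throughout. Adipoq ran from 7.69 over 17.3 to 56.5 CPM in AL females and from 1.61 over 13.4 to 33.8 CPM in IF females. Its log2 fold change was -0.58 ± 0.54. Cfd ran from 31.9 over 124.4 to 521.4 CPM under AL and from 8.67 over 124.7 to 326.4 CPM under IF. Fabp4 ran from 163.7 over 211.8 to 367.5 CPM under AL and from 106.6 over 174.4 to 401.4 CPM under IF. The groups overlapped for all 10 genes. IF mouse 36 was far below the other IF females for Adipoq, Plin1, Cidec, Retn and Cfd, with 1.61, 1.56, 1.93, 1.51 and 8.67 CPM. The fitted log2 fold changes of the 9 members tested lay between -0.81 for Cidea and -0.13 for Arxes2. Single libraries moved them: without AL mouse 29 Cidea had -0.10 and Arxes2 0.21, and without AL mouse 26 Cidec had 0.087, Retn 0.049 and Cfd 0.11. Of these 9, 0 were called, beside 0.00653% of 15308 genes tested with edgeR, 1 gene. At an unadjusted p under 0.05 there were 1644 genes, and DESeq2 called 91. The gene called by edgeR, named after its value was seen, was Rn18s-rs5, with 1.003 ± 0.12.

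Ucp1 was seen in 3 of 16 female muscles, and 220 of their 227 reads came from AL mouse 29, at 6.79 CPM. The same mouse had the highest Cidea and Arxes2 of the female mice, 5.37 and 3.30 CPM. The next highest female was IF mouse 40 with 0.135 CPM of Ucp1.

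The interaction of sex and diet in muscle, written as the female minus the male log2 fold change, was -5.23 ± 1.18 for Cidea and -4.33 ± 0.92 for Arxes2. For Cfd, Adipoq, Cidec, Retn and Fabp4 it lay between -3.22 ± 0.87 and -1.95 ± 0.42. For Plin1 it was -2.40 ± 0.85 and for Lep 0.92 ± 0.92. Because it is built from the muscle diet differences it is a description here too, and no difference between the sexes is read from it; 7 of 9 members were called, beside 14.2% of 16346 genes.

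Male and female muscle under AL were set side by side as a description. Female over male log2 fold changes ran from -0.46 ± 0.65 for Lep to 1.42 ± 0.73 for Arxes2. Of these 9, 0 were called beside 40.2% of 15079 genes, and nothing is read from that count. AL females had Arxes2 values from 0.0889 over 1.42 to 3.30 CPM, which overlap the AL males. The comparison over all genes called 6069, of which 2968 were lower in females; at an unadjusted p under 0.05 there were 7378 genes, and DESeq2 called 6391.

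Levels of different genes were compared per kb of gene length. In AL males Cfd had a median of 67.8 CPM per kb and Fabp4 52.0, followed by Adipoq with 7.59, Cidec with 7.12, Retn with 4.75, Plin1 with 1.76, Lep with 1.21, Cidea with 0.978 and Arxes2 with 0.228 CPM per kb. The ranges over the 8 mice overlapped between each gene and the next in this order, except that the Fabp4 values all lay above those of Adipoq. Genes further apart overlapped too, as Cfd did with Adipoq and Cidec, and Plin1 with Cidea, so the order is not firm. In IF males the order began with Cfd at 569.6, Fabp4 at 174.2, Cidec at 44.6 and Adipoq at 38.3 CPM per kb, and Lep came last with 0.836. The table gives Fabp4 a length of 4489 bases, which is its whole span from start to end, so its level per kb is understated beside genes given a spliced length. Without length Fabp4 stood above Cfd, with medians of 233.5 and 62.6 CPM in AL males and 782.2 and 525.2 CPM in IF males. The order of these 2 genes is thus not known.

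In male liver Fabp4, Cidec and Cfd passed the filter on low counts, and Cfd was the member that passed the test. Cfd, which cleaves complement factor B, ran from 12.1 over 23.9 to 37.1 CPM in AL males and from 0.358 over 0.853 to 1.49 CPM in IF males. The groups did not overlap and every IF liver lay far below every AL liver. Cfd fell, with a log2 value of -4.70 ± 0.30 (edgeR quasi-likelihood test, adjusted p = 2.38e-10, lower in 8 of 8 IF mice). In the muscle of the male IF mice Cfd stood higher than under AL. Cidec ran from 5.10 over 6.79 to 9.92 CPM in AL livers and from 3.94 over 6.35 to 15.8 CPM in IF livers, a log2 difference of 0.24 ± 0.27 (adjusted p = 0.48). Fabp4 ran from 5.63 over 11.5 to 13.5 CPM and from 8.49 over 13.3 to 24.1 CPM (0.44 ± 0.21, adjusted p = 0.0841), and passed the threshold with a block for the replicate number (adjusted p = 0.039). So 1 of 3 members tested was called, beside 44.6% of 16204 genes.

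In male liver Adipoq had no read in 7 of 8 AL and 6 of 8 IF male livers and at most 0.358 CPM, in IF mouse 10. Plin1 reached at most 0.118 CPM in AL and 0.681 CPM in IF male livers.

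Female liver had little Cfd under either diet, with medians of 0.0346 CPM under AL and 0 under IF. The liver library of AL mouse 31 stood apart: it held 5.99 CPM of Cfd, 1.70 of Plin1, 1.23 of Adipoq, 1.10 of Retn and 16.4 of Fabp4, the highest female liver values of each. Fabp4 and Cidec were the members tested in female liver, with log2 fold changes of -0.51 ± 0.42 (adjusted p = 0.882) and -0.50 ± 0.31 (adjusted p = 0.865). Without AL mouse 31 they were -0.15 and -0.35. No gene of 15938 was called in female liver (0%) with edgeR, 919 had an unadjusted p under 0.05, and DESeq2 called 6.

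Cortex expressed a different subset: Arxes2, Cidea and Retn. Arxes2 was higher in cortex than in any muscle library, from 26.4 over 36.02 to 42.2 CPM in 7 AL males and from 28.02 over 31.9 to 38.4 CPM in 8 IF males, a log2 difference of -0.13 ± 0.09 (adjusted p = 0.438). Cidea ran from 1.31 over 1.56 to 4.01 CPM and from 1.27 over 2.02 to 2.75 CPM, a log2 difference of -0.02 ± 0.23 (adjusted p = 0.976). Adipoq, Plin1, Cidec, Cfd and Lep stayed at or under 0.302 CPM in all 31 cortex libraries. Ucp1 had at least 1 read in each of them but was too scarce to be tested. Its medians were 0.242 CPM in AL males and 0.0778 CPM in IF males. The groups overlapped, with 5 of 8 IF mice below every AL mouse.

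Retn was the only member called in cortex. It ran from 1.504 over 1.59 to 2.91 CPM in AL males and from 0.549 over 1.07 to 1.36 CPM in IF males, and the groups did not overlap. Its log2 fold change was -0.83 ± 0.20 (adjusted p = 0.018, lower in 8 of 8 IF mice than in any AL mouse). The call did not hold with the cortex library of AL mouse 1 put back (-0.73, adjusted p = 0.0848), with a replicate block (adjusted p = 0.0606) or without AL mouse 2 and IF mouse 10 (adjusted p = 0.0594). 1 of 3 members tested was called, beside 7.21% of 18462 genes. In the female cortex the log2 fold change of Retn was -0.12 ± 0.23 (adjusted p = 0.859) and 0 of 3 members were called by edgeR, beside 0.0109% of 18403 genes; 2069 had an unadjusted p under 0.05 and DESeq2 called 73. Fabp4 was too scarce in cortex to be tested: AL males had 0 to 3 reads and IF males 4 to 22, and the library of AL mouse 1, left out here, held 6, inside the IF range.

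Between mice of the same group, most members went up and down together. Each gene's log2 CPM and a score, the mean log2 CPM of Adipoq, Plin1 and Cidec, were compared over 32 muscle libraries after their group means were subtracted; these values describe the libraries and carry no test. Beside the 3 genes of the score itself, Pearson r with the score was 0.953 for Retn, 0.947 for Cfd, 0.917 for Fabp4, 0.879 for Arxes2 and 0.798 for Lep. It was 0.524 for Cidea and 0.374 for Ucp1. Spearman's rho was 0.941 for Retn, 0.724 for Lep, 0.612 for Cidea and 0.369 for Ucp1. Without the 2 libraries farthest from the median score, r was 0.931 for Retn, 0.711 for Lep, 0.628 for Cidea and 0.484 for Ucp1. Cidea is thus the loosest of the members that passed the filter, with r within a group between 0.0139 and 0.878. The score itself ran from 1.53 over 3.37 to 5.21 in AL males and from 3.53 over 5.67 to 7.58 in IF males. In females it ran from 2.92 over 4.23 to 5.51 under AL and from 0.80 over 3.96 to 5.31 under IF.

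The 10 genes outside the list whose values followed the score most closely were Ifi27l2a, Cebpa, Acp5, Klhdc7a, Mrap, Cdo1, Scd1, Cdsn, Rbp4 and Slc7a10, with r from 0.927 for Slc7a10 to 0.950 for Ifi27l2a. Of 12476 genes with a mean of at least 1 CPM in muscle, 131, or 1.05%, had r of at least 0.7, a bound set after the values were seen. Cebpa encodes a transcription factor of the fat cell, Mrap the melanocortin receptor accessory protein, Scd1 a desaturase of fatty acids and Rbp4 a retinol carrier. In male muscle Cebpa ran from 4.37 over 9.54 to 25.2 CPM under AL and from 9.04 over 27.3 to 86.9 CPM under IF.

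Lep was also set against Adipoq within each library. The log2 ratio of Lep to Adipoq, each with 0.1 CPM added, had a median of -1.42 in AL males (from -3.53 to -0.73) and -4.78 in IF males (from -7.05 to -2.96), and the ranges overlapped. In females the medians were -2.34 under AL and -2.62 under IF. The ratio of Arxes2 to Adipoq went the opposite way, from -5.52 over -4.72 to -3.66 in AL males and from -3.22 over -2.84 to -2.14 in IF males, with no overlap. The ratio of Cidec to Adipoq hardly differed, with medians of 0.49 and 0.55. Retn likewise kept its ratio to Adipoq, with medians of -0.48 and -0.45. Other members moved, with overlap between the diets in each. Medians in males went from -3.29 to -1.77 for Cidea, 2.40 to 3.12 for Cfd, 4.36 to 3.90 for Fabp4 and -0.25 to -0.48 for Plin1. Which cells these shifts in ratio come from was not tested.

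**Figure D2:**
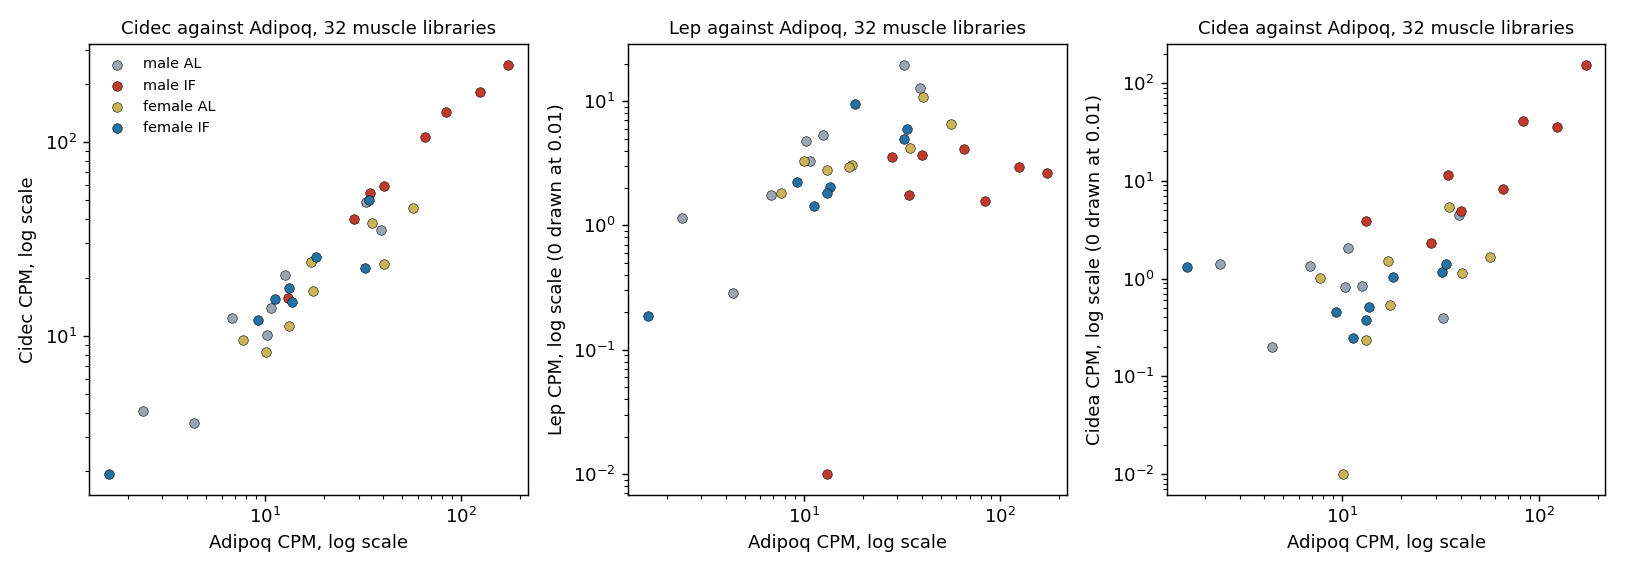
CPM of Cidec, Lep and Cidea (y axes, log scale) against CPM of Adipoq (x axes, log scale) in 32 muscle libraries, 1 point per mouse, coloured by sex and diet. Cidec follows Adipoq in all groups, and male IF mice lie low for Lep at their level of Adipoq. The male IF mice 9, 10 and 12 have the highest CPM of Cidea, whatever their level of Adipoq.

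With the score as a covariate in the male muscle fit, the fold changes of 8 members came nearer to 0, to different extents, and that of Lep moved farther from it. Adipoq, Cidec and Plin1 came to 0.07 ± 0.10, 0.22 ± 0.13 and -0.34 ± 0.11; the score is their mean, so values near 0 follow from the adjustment and nothing is read from them. Retn came to 0.34 ± 0.17, Fabp4 to 0.59 ± 0.14, Cfd to 0.78 ± 0.25 and Cidea to 1.16 ± 0.89. Arxes2 came to 2.29 ± 0.33, and Lep went from -1.25 to -2.74 ± 0.67. Score and diet moved together in males, so this fit takes away part of any diet difference that goes with the score, whatever its source. How far adipose tissue in the sample accounts for the difference in muscle was not tested.

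Across all genes, 3463 of 15025 were called in male muscle without the score and 3037 (20.2%) with it. Of the 3463, 2260 (65.3%) were called in the same direction with the score, and 776 genes were called only with it. Among the 280 genes called at least 2-fold higher under IF, 125 (44.6%) kept their call and 83 had r of at least 0.7 with the score. Among the 119 called at least 2-fold lower, 75 (63.0%) kept it and 0 had such an r. Among the 1446 called higher by less than 2-fold, 915 (63.3%) kept it and 11 had such an r. The 94 genes called higher with r of at least 0.7 had a median log2 fold change of 2.03, and of 0.31 with the score. The 1632 called higher with a smaller r had medians of 0.42 and 0.45. These sets were parted by their r with the score, so a larger change in the former on adding the score follows from how they were picked. In female muscle 1 gene was called with and without the score.

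**Figure D3:**
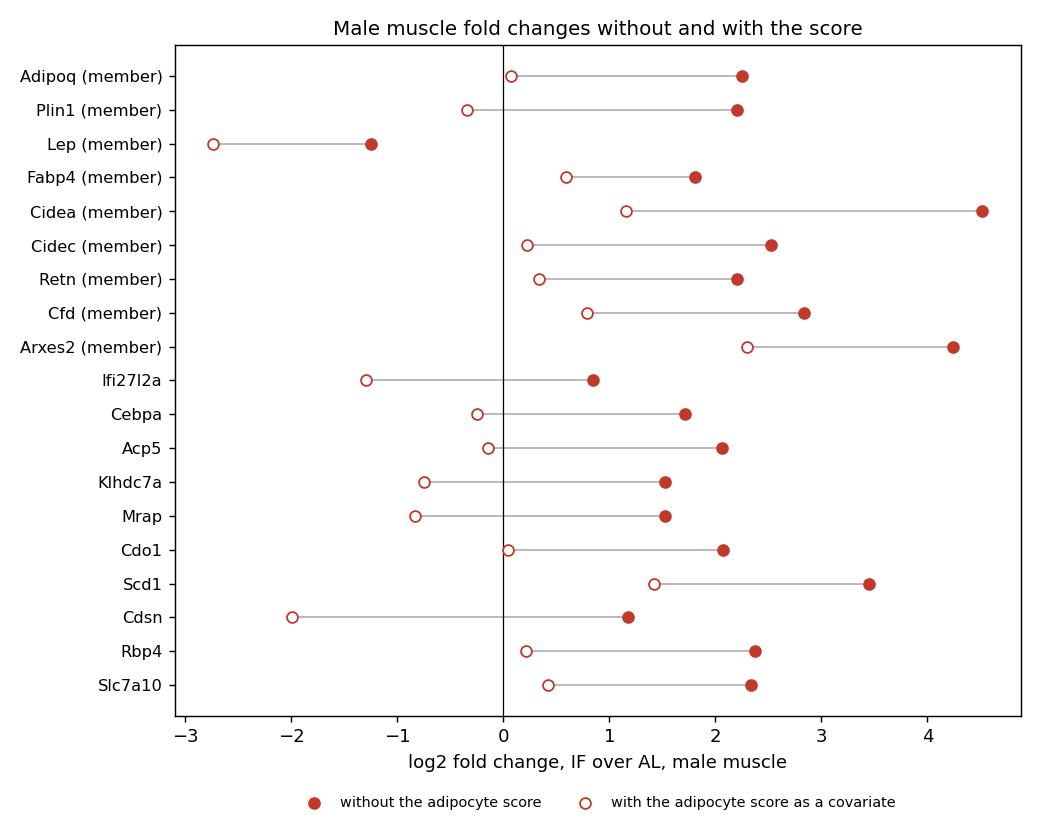
Log2 fold change, IF over AL, in male muscle for 9 members and the 10 genes nearest to the score, without (filled) and with (open) the adipocyte score as a covariate. Adipoq, which is part of the score, goes from 2.25 to 0.07, Arxes2 from 4.25 to 2.29, and Lep from -1.25 to -2.74.

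Further white fat cell genes stood higher in male IF muscle. Of 18, 15 were called higher and 0 lower, median 1.84 on the log2 scale beside 0.01 over all genes; with the score 4 were called higher and 2 lower, with a median of 0.44. Over all genes tested in male muscle 11.5% were called higher and 23.0% in either direction, and 20.2% with the score, which stand beside every list counted in male muscle below. Pck1, which feeds glycerol synthesis in fat cells, ran from 1.02 over 3.10 to 19.3 CPM under AL and from 18.0 over 70.8 to 336.3 CPM under IF, with a log2 fold change of 4.45 ± 0.78, and 1.94 ± 0.28 with the score. Adrb3, the beta-3 adrenergic receptor of fat cells, came to 3.23 ± 0.78, Arxes1 to 2.81 ± 0.60 and Nrg4 to 2.53 ± 0.45. The summed level of the list had medians of 384.3 CPM in AL males and 878.4 CPM in IF males, with Plin4 the most abundant gene in both. Pparg, Cebpa, Lipe and Thrsp of this list also stand in other lists here. In females the sums were 542.7 and 558.6 CPM, and edgeR called 0 of 17, beside 0.00653% of all genes, so that count tells nothing of this list. In male liver 5 of 15 tested were called higher and 5 lower, beside 44.6% of all genes called in either direction. In male cortex 1 of 15 was called higher and 0 lower, beside 7.21%. Plin4 was called higher in both, with 2.12 ± 0.33 in liver and 3.35 ± 0.51 in cortex. Its cortex value with the library of AL mouse 1 put back is not given here. The lists were chosen with earlier results known, so these counts are descriptions as well.

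Fatty acid synthesis genes stood mostly higher in male IF muscle and lower in male IF liver. In muscle 7 of 9 were called higher and 1 lower (median 2.003 on the log2 scale), and with the score 2 higher and 0 lower (0.50). Fasn, the fatty acid synthase, ran from 12.96 over 23.2 to 81.8 CPM in AL muscle and from 43.3 over 167.0 to 1367 CPM in IF muscle, with a log2 fold change of 3.74 ± 0.77. Scd1 had 31.9 to 215.7 CPM under AL and 230.2 to 2986 CPM under IF, with no overlap, and 3.45 ± 0.59. Elovl6 came to 4.20 ± 0.78 and Acaca to 2.40 ± 0.50. In liver 0 of 9 were called higher and 6 lower (median -0.91 beside 0.06 over all genes), where 3419 of 16204 genes were called lower and 44.6% in either direction. There Fasn fell from a median of 594.9 CPM, between 399.9 and 1461, to 154.8 CPM, between 126.6 and 217.9. Its log2 fold change was -2.18 ± 0.25 (edgeR, adjusted p = 7.78e-07, lower in 8 of 8 IF mice). Acly and Acss2, which make and recover acetyl-CoA, fell too, with -1.71 ± 0.18 and -1.65 ± 0.16. In the cortex 0 of 9 were called, beside 7.21% of all genes, and Fasn, the most abundant, had 0.04 ± 0.08.

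Of 10 brown fat cell genes beside Ucp1, 8 were tested in male muscle. Of these 2 were called higher and 2 lower, and the median log2 value was 0.07. The potassium channel Kcnk3 had 0.551 to 2.05 CPM under AL and 0.714 to 18.5 CPM under IF, and came to 2.40 ± 0.55. The proton channel Otop1 had at most 0.463 CPM under AL and up to 8.78 CPM under IF, and came to 3.47 ± 0.90. The groups overlapped for both. Cox8b, which muscle fibres also express and which made up nearly all of the summed level, came to -0.31 ± 0.10. With the score 0 of 8 were called higher and 2 lower. Slc27a2 and Lhx8, too scarce to be tested, had medians of 0.0608 and 0.0476 CPM under AL and 0.322 and 0.249 CPM under IF, with overlap. Zic1 and Dio2 went the other way, with medians of 0.598 and 0.647 CPM under AL and 0.166 and 0.373 CPM under IF, also with overlap. Called or not, 4 of the 8 tested had a log2 value above 0 and 4 below. The sums had medians of 797.1 CPM in AL and 661.1 CPM in IF males.

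Of 9 fat cell transcription factors, 5 were called higher and 2 lower in male muscle, median 0.76 on the log2 scale, and 3 higher and 2 lower with the score. Cebpd ran from 11.7 over 15.2 to 25.1 CPM under AL and from 23.5 over 61.0 to 110.9 CPM under IF, and its log2 fold change went from 2.05 ± 0.29 to 2.68 ± 0.30 with the score. Klf15, a glucocorticoid-responsive factor, went from 0.77 ± 0.09 to 0.83 ± 0.13. Cebpa and Pparg went from 1.71 ± 0.51 to -0.24 ± 0.19 and from 1.34 ± 0.31 to 0.47 ± 0.29. Cebpa was also picked above for its r with the score, so a large change in it follows from that choice. Nothing is read from the change in Cebpa. In male liver 3 of these 9 were called higher and 2 lower, median -0.04, beside 44.6% of all genes called in either direction. Cebpd and Cebpb were among the higher, with 1.63 ± 0.16 (adjusted p = 1.58e-08) and 1.56 ± 0.18 (adjusted p = 2.78e-07), with no overlap between the diets, and Srebf1 was lower, with -1.05. In the male cortex 2 were called higher and 0 lower, beside 7.21% of all genes: Cebpd and Klf15 had 0.55 ± 0.14 (adjusted p = 0.0239) and 0.50 ± 0.10 (adjusted p = 0.00704); neither call held with the library of AL mouse 1 put back, nor that of Cebpd with a replicate block.

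Of 6 lipolysis genes in male muscle, 3 were called higher and 1 lower (median 0.48), beside 23.0% of all genes called in either direction, and 1 and 1 with the score. Lipe, hormone-sensitive lipase, came to 1.86 ± 0.35, Mgll to 0.84 ± 0.23 and Pnpla2, adipose triglyceride lipase, to 0.76 ± 0.16, while G0s2, the inhibitor of that lipase, came to -1.07 ± 0.33. In male liver 3 were called higher and 1 lower, beside 44.6% of all genes, with Plin5 at 1.86 ± 0.21, Pnpla2 at 1.36 ± 0.11 (adjusted p = 4.92e-10), Mgll at 0.82 ± 0.10 and Abhd5 at -0.63 ± 0.15. In male cortex 1 was called higher and 0 lower, beside 7.21%, Pnpla2 with 0.46 ± 0.09 (adjusted p = 0.00835). The cortex value of Pnpla2 with the library of AL mouse 1 put back is not given here. Of 4 receptors of the secreted products, 1 was called higher in male muscle, Adipor2 with 0.31 ± 0.08, and 0 with the score. In male cortex 1 of the 4 was called higher and 0 lower, beside 7.21%, again Adipor2, with 0.63 ± 0.095 and no overlap. Its value with the cortex library of AL mouse 1 put back is not given here. In male liver 3 of the 4 were called higher and 0 lower, and the leptin receptor Lepr rose from a median of 0.711 CPM to 4.90 CPM with no overlap (2.71 ± 0.32, adjusted p = 3.02e-07). Markers of other cells stood higher in the same livers. Of these, 4 of 6 endothelial, 4 of 7 stromal and 2 of 6 macrophage genes were called higher and 0 lower. Of 4 hepatocyte genes 0 were called higher and 1 lower. The part of these cells in the liver differences was not tested.

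Markers of other cells in male muscle were called lower or not at all. In male muscle 0 of 6 endothelial genes were called higher and 1 lower, Kdr with -0.54 ± 0.17; their summed level had medians of 194.4 CPM under AL and 181.2 CPM under IF, and Cdh5 was the most abundant. Of 6 macrophage genes 1 was called lower, Csf1r with -0.44 ± 0.15, and the sums were 54.97 and 42.6 CPM, led by C1qa. Of 7 genes of fibro-adipogenic and stromal cells 0 were called, with sums of 379.3 and 342.4 CPM, led by Dcn. Of 5 erythrocyte genes 0 were called, with sums of 365.8 and 432.9 CPM led by Hbb-bs. Of 3 B and T cell genes tested 1 was called lower, Cd3e with -1.08 ± 0.31, and the sums were 3.72 and 3.26 CPM. Tendon genes stood lower: 3 of 4 were called, and 2 with the score, with medians of -1.34 and -1.38, sums of 80.5 and 45.2 CPM led by Thbs4, and Fmod at -1.79 ± 0.46 and Scx at -0.90 ± 0.17. Of 8 muscle fibre genes 2 were called lower, Mb with -0.90 ± 0.25 and Ckm with -0.19 ± 0.06, and the sums were 130200 and 119100 CPM, led by Acta1. Of 4 hepatocyte genes 1 was tested, Alb with 1.40 ± 0.53, and 0 were called, with sums of 0.390 and 1.26 CPM. Of 4 neuron genes 0 passed the filter, with sums of 0.390 and 0.299 CPM led by Slc17a7. Called or not, 4 of 6 endothelial, 2 of 6 macrophage, 2 of 7 stromal, 3 of 5 erythrocyte, 2 of 3 B and T cell, 0 of 4 tendon and 0 of 8 muscle fibre genes had a log2 value above 0. The part of any of these cells in the differences above was not tested.

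Female and male AL muscle were compared over the same lists. The male AL libraries are also those the male diet difference was taken against, so these values are a description, and 40.2% of all genes were called. Of 17 further white fat cell genes 5 were called higher and 1 lower in females, with Adrb3 at 2.05 ± 0.62, Nrg4 at 1.05 ± 0.25, Gpam, the first enzyme of triglyceride assembly, at 0.68 ± 0.11 and Aqp7 at -0.54 ± 0.12. The groups overlapped for Adrb3, with medians of 0.913 CPM in males and 6.09 CPM in females, and not for Gpam, with 81.2 to 122.3 CPM in males and 122.8 to 210.0 CPM in females. Of 9 fatty acid synthesis genes 4 were called higher and 0 lower, Elovl6 with 1.40, Acaca with 0.75, Acly with 0.59 and Mlxipl with 0.33. Of 9 fat cell transcription factors 1 was called higher, Klf15 with 0.88 ± 0.08, and 3 lower, Srebf1 with -0.49, Rxra with -0.41 and Zfp423 with -0.28. Of 7 brown fat cell genes 0 were called higher and 1 lower, Cox8b with -0.87 ± 0.13. Of 6 lipolysis genes 1 was called higher, Abhd5 with 0.23, and of 4 receptors 2, while 0 of either were called lower. Among markers of other cells 0 endothelial, macrophage, tendon or muscle fibre genes were called higher. Called lower were 1 of 6, 2 of 6, 1 of 4 and 2 of 8, in that order, with C1qa at -1.05 ± 0.29 and Thbs4 at -0.82 ± 0.18. Of 7 stromal genes 1 was called higher and 3 lower.

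The 10 genes lie on 8 chromosomes of GRCm39 and share no locus. Adipoq is at chr16:22965286-22976778, Plin1 at chr7:79369966-79382651, Lep at chr6:29060219-29073876, Cidec at chr6:113401595-113412721, Fabp4 at chr3:10269148-10273636, Cfd at chr10:79726687-79728489, Retn at chr8:3705770-3710110, Ucp1 at chr8:84016981-84025081 and Arxes2 at chrX:134894573-134896104. Cidea is the member whose span overlaps another gene in the table, B430212C06Rik on the other strand. Arxes2 has a close copy, Arxes1, and 40.1% of the 50-base windows of its transcript occur unchanged in that of Arxes1. Reads from such windows could be counted for either gene or for neither, so the values of the pair are uncertain.

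Since most members varied together, their promoters were searched for the core that C/EBP factors bind, TTGCNNAA on either strand, in the 250 bases before the start of transcription. RefSeq promoters (GRCm38.p6) were matched for 8 of the 10 genes, 9 promoters in all; there was no entry for Cidea or Fabp4. The core occurred in Lep, Plin1 and the second promoter of Cidec, 3 of 9, and in 9.56% of all 32851 promoters. Its palindromic form TTGCGCAA occurred in 1 of 9, that of Lep, and in 0.164% of all. A direct repeat of the kind PPAR factors bind occurred in 0 of 9 and in 0.338% of all. The Lep and Plin1 stretches are shown because these genes hold the core and stood on opposite sides in male muscle, with the core in capitals. The Lep stretch, on the plus strand, is chr6:29059971-29060220, with its core starting 55 bases before the start of transcription. The Plin1 stretch, on the minus strand, is chr7:79732777-79733026, with cores starting 187 and 58 bases before it. A match describes these letters only.
Lep: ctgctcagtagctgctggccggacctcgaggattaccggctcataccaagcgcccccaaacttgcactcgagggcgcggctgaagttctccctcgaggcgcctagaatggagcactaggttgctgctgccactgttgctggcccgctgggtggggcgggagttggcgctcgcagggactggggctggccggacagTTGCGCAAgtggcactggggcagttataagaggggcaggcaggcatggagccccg
Plin1: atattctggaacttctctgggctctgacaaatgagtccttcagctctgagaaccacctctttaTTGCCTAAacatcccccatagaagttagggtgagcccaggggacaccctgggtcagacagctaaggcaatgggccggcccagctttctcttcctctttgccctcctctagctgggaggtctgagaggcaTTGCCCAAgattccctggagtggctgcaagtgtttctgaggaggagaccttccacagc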

How the data were processed

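The table of 56748 genes holds raw read counts as deposited; the authors made them with Hisat2 on GRCm39 followed by featureCounts and did not normalize them. Whether counting used the strand is not stated. The members and the gene lists were chosen with earlier results of these data known. Each tissue and sex was fitted alone with edgeR 4.0.16 in R 4.3.3 (TMM, robust quasi-likelihood test), over genes kept by its filter with a minimum count of 10 and a minimum total of 15. Adjusted p follow Benjamini and Hochberg with a threshold of 0.05. Errors of log2 fold changes are approximate standard errors. Each is the absolute log2 fold change divided by the square root of the F statistic of the quasi-likelihood test. Female and male AL muscle were compared in the same way, and the interaction of sex and diet was fitted over 32 muscle libraries. Log2 CPM for scores used a prior count of 2.

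Genes named from a list were mostly taken from at most 4 in each comparison. These were the called genes with the largest change and a mean of at least 1 CPM, or else the most abundant gene. The text does not give every one of these. All 10 members and the 10 genes nearest to the score were named too. Also outside this rule were Slc27a2, Lhx8, Zic1 and Dio2, the leading genes of summed levels, genes used to check labels, and genes called in female mice. Lists held white and brown fat cell, transcription factor, fatty acid synthesis, lipolysis, receptor and sex-linked genes and markers of other cells.

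Alternatives were RLE size factors, DESeq2 1.42.0, a filter of only 1 count in all, a stricter one of 10 counts in each library, a block for the replicate number, 7 mice per group, the adipocyte score as a covariate, each muscle library left out, unscaled CPM and the cortex library of AL mouse 1 put back. The score with RLE size factors and female liver without AL mouse 31 were chosen after seeing the data. That cortex library was left out because its sex genes go against its label. Depths ranged from 26097314 to 49838004 counts, and the spread between mice is given in place of counting error. Promoters were searched with Python 3.11.15, and figures drawn with matplotlib 3.10.9.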

Additional observations from a re-analysis of the deposited data

Results flagged for a closer look

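Of 80 pairings of a gene with a group of mice, 15 had 1 library far from the others of its group, where chance does so in about 1 in 20 groups. The pairings are not independent, since members vary together and 9 of the 15 come from the libraries of 2 mice, so the count cannot be set against that chance. In female muscle IF mouse 36 was low for Adipoq, Plin1, Cidec, Retn and Cfd, with 1.61, 1.56, 1.93, 1.51 and 8.67 CPM. In the liver of female AL mouse 31, Adipoq, Plin1, Retn and Cfd were high, with 1.23, 1.70, 1.10 and 5.99 CPM. In male liver IF mouse 10 had 0.358 CPM of Adipoq. In male muscle IF mouse 11 had 0 CPM of Lep and AL mouse 2 had 0.347 CPM of Ucp1. In female muscle AL mouse 29 had 6.79 CPM of Ucp1. In male cortex AL mouse 5 had 2.91 CPM of Retn and IF mouse 14 had 0.549 CPM.

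The fitted interaction of sex and diet in muscle, female minus male, was -2.81 for Adipoq, -1.95 for Fabp4, -5.23 for Cidea, -2.66 for Cidec, -2.50 for Retn, -3.22 for Cfd and -4.33 for Arxes2 on the log2 scale. The list was selected on the muscle differences these values are built from, so they are a description and no difference between the sexes is read from them.

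The cortex library of AL mouse 1, labelled male and left out of the values in the text except where it is put back, held 213.3 CPM of Xist without scaling.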

How the results depend on the processing

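Under the alternatives, 68 counts of genes called lay within 1.5 times the count given in the text and 11 did not. Without scaling, 40 of 40 member CPM moved by less than 1 SD between mice. Of the member log2 values in male muscle, 196 moved by less than that spread, 7 by more and 1 changed sign. In the other comparisons 323 kept their side of the threshold, 3 lost a call, 1 gained it and 1 was counted as reversed. This tally does not track the sign of every value that was not called. Further sign changes in female muscle are given below. Of the values of other named genes in male muscle 865 moved by less, 24 by more and 2 called ones changed sign; elsewhere 443 kept their side, 13 lost a call and 1 gained it. For female muscle DESeq2 called 91 genes and no filter beyond 1 count gave 5, in place of 1. Leaving out 1 library in turn gave 1 to 3, the 3 without AL mouse 27 and 2 without IF mouse 33. For female liver DESeq2 called 6 in place of 0. For male cortex, in place of 1332, DESeq2 called 2259, a replicate block gave 382, leaving out AL mouse 2 and IF mouse 10 gave 498 and the library of AL mouse 1 put back gave 294. For female cortex, in place of 2, DESeq2 called 73 and a replicate block 0. With the adipocyte score in the male muscle fit the log2 values of Plin1, Cebpa and Acp5, called without it, changed sign to -0.34, -0.24 and -0.15, and those of Ifi27l2a, Klhdc7a, Mrap and Cdsn, not called without it, to -1.29, -0.75, -0.83 and -1.996. With the library of AL mouse 1 put back that of Cidea in male cortex changed to 0.036. In female muscle, where 0 of 9 members were called and all 9 values lay below 0, leaving out 1 library turned those of Cidec, Retn, Cfd and Arxes2 above 0, and 5 of 9 were above 0 with the score. Plin1 is part of the score, and Cebpa, Acp5, Ifi27l2a, Klhdc7a, Mrap and Cdsn were picked for their r with it. A large change in these genes on adding the score follows from that choice. The cause of the other changes was not tested.

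The replicate block pairs AL and IF mice that share only a number. Library pairs of the same number had r between -0.139 and 0.108 in male muscle, where 0 of 8 AL libraries were closest to the IF library of their own number. In female muscle r ran from -0.262 to 0.458, with 1 of 8. With the block 3141 genes were called in male muscle in place of 3463, and 382 in male cortex in place of 1332.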

Other observations

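Genes of the Y chromosome stood higher under IF in male muscle and lower in male liver, and in male cortex 0 of 4 were called, with a median log2 value of -0.10. In muscle 4 of 4 tested were called higher under IF, beside 11.5% of all genes: Uty with 0.60 ± 0.12 on the log2 scale, Kdm5d with 0.40 ± 0.12, Eif2s3y with 0.31 ± 0.07 and Ddx3y with 0.25 ± 0.07. In liver 3 of 4 were called lower, beside 3419 of 16204 genes: Uty with -0.73 ± 0.14 (edgeR, adjusted p = 0.000129, lower in 8 of 8 IF mice than in any AL mouse), Kdm5d with -0.68 ± 0.17 and Eif2s3y with -0.30 ± 0.11.

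In male liver 3 of 5 erythrocyte genes were called higher and 0 lower, beside 3815 of 16204 genes called higher and 44.6% called in either direction. Hbb-bs, a beta globin, ran from 58.8 over 134.2 to 176.0 CPM under AL and from 263.5 over 872.5 to 2621 CPM under IF (3.17 ± 0.52, edgeR, adjusted p = 0.000167). The groups did not overlap. In female cortex 2 genes were called lower under IF, mt-Atp6 with -2.43 ± 0.35 and Gm11263 with -1.15 ± 0.18, both named after their values were seen.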
